A study of Mus musculus with 14 samples.

Results

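The 47 genes described here encode the lysosome and the autophagy machinery, and were chosen by name as rows of the count table whose Ensembl identifier maps to the gene on GRCm38. The table has 52550 rows, of which 16836 passed the edgeR expression filter and were tested, and all 47 genes were among them. By role they were 3 transcription factors of the TFEB family, 8 lysosomal membrane proteins, 10 cathepsins and related proteases, 12 glycosidases, lipid hydrolases and luminal proteins, 6 subunits or accessory proteins of the vacuolar proton pump, and 8 autophagy genes. Another 84 genes of the same organelles, listed by role and not by how they moved, were described beside them.

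RNA was measured in mouse lung adenocarcinomas started with or without a guide RNA against Setd2, the methyltransferase that places trimethylation on lysine 36 of histone H3. There were 6 KPY-Ctrl and 8 KPY-Setd2KO tumors. Per the study's methods, all mice carried Trp53 flox/flox and Rosa26 LSL-YFP/LSL-YFP on a mixed background, so that Cre delivered to the lung by a lentivirus turned on YFP and removed p53 in the same cell. The lentivirus also carried Cas9 and 1 guide RNA, which targeted Setd2 in KPY-Setd2KO mice and a β-galactosidase control sequence in KPY-Ctrl mice. The age of the mice at collection is not given in the labels. Per the methods, each tumor was dissected and its living YFP-positive cells were sorted, whereas the labels describe RNA from cell lines and other kits; the methods are followed here. There were fewer mice than tumors, the mouse of each tumor is not given, and every test treated tumors as independent, so p-values measure the spread between these tumors.

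Lysosomes are acidic compartments in which hydrolases break down material brought in by endocytosis, phagocytosis or autophagy. The pump called V-ATPase acidifies them, membrane proteins such as LAMP1 and LAMP2 line them, and autophagy delivers the cell's own cytoplasm to them in double-membraned vesicles. TFEB, TFE3 and MITF are related transcription factors that bind a short E-box and switch on lysosomal genes, and mTORC1, which the study examined at the LAMP2-positive lysosome, keeps TFEB out of the nucleus when nutrients are plentiful. Macrophages, professional phagocytes, hold many lysosomes. The question put to these genes was therefore whether their RNA differed by genotype, apart from the amount of macrophage RNA in each sample.

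The binding sequence of the TFEB family, whose factors switch on lysosomal genes, is shown first. RefSeq promoter windows of GRCm38.p6, from 250 bases before to 50 bases after the annotated start, were found for 40 of the 47 genes. No window was found for Npc1, Ctsb, Ctsh, Atp6v0d2, Atp6v1b2, Becn1 and Atg16l1. The windows were searched for the E-box core CACGTG, which reads the same on both strands, and for its extended form TCACGTGA, also its own reverse complement and overlapping the core. The core was present in 14 of the 40 genes (35%), in 15 of 65 other pathway genes with a window (23.1%) and in 2187 of all 27025 genes with a window (8.09%). The extended form was present in 6 of 40 (15%), in 6 of 65 (9.23%) and in 304 of 27025 (1.12%). The 14 genes were Lamp1, Mcoln1, Ctsa, Ctsd, Ctsl, Lgmn, Gaa, Gla, Glb1, Naglu, Atp6v0d1, Atp6v1a, Atg5 and Atg7. A match is a string of letters in the reference and was not measured as a bound site in these tumors.

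The stretches below are from the 6 genes with the extended form and from Lamp1, which holds the core 4 times. Capitals mark TCACGTGA, or CACGTG where the flanking letters differ. They run 5′ to 3′ on the gene's strand. On GRCm38.p6 they lie at chr8:3500399-3500538 on the plus strand (Mcoln1), chr2:164833653-164833792 on the plus strand (Ctsa), chr7:142387808-142387947 on the minus strand (Ctsd), chrX:134601116-134601255 on the minus strand (Gla), chr8:105566045-105566184 on the minus strand (Atp6v0d1), chr16:44139291-44139430 on the minus strand (Atp6v1a) and chr8:13159041-13159180 on the plus strand (Lamp1). All end at or before the 20th base of the transcript.
Mcoln1: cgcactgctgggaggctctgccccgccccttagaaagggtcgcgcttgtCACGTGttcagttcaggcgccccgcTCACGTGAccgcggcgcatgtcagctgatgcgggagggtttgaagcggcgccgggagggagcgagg
Ctsa: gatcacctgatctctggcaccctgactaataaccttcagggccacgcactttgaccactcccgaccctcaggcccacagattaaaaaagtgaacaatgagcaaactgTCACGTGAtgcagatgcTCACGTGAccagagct
Ctsd: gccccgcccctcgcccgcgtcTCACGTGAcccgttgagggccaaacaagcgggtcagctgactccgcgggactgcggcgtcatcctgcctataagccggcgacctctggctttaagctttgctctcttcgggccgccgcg
Gla: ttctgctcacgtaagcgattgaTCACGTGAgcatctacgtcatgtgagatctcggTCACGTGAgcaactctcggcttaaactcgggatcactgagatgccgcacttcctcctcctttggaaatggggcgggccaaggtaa
Atp6v0d1: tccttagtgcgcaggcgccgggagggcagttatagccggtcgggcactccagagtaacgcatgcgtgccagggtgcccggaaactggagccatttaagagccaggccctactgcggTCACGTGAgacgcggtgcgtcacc
Atp6v1a: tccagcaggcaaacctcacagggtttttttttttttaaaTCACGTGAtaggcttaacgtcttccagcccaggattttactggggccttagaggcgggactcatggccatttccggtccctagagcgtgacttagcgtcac
Lamp1: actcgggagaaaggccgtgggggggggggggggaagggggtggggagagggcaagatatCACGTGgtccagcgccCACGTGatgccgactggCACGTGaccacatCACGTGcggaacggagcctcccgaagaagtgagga

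The samples differed first in how much macrophage RNA they held. A macrophage score, the mean log2 CPM (read counts scaled to a common library total) of 12 leukocyte and macrophage genes that include none of the 47, ranged from 3.19 to 8.55 (median 6.20) in KPY-Ctrl and from 2.85 to 9.11 (median 6.92) in KPY-Setd2KO tumors. The ranges of the genotypes overlapped almost whole, and their means of 6.06 and 6.46 did not differ beyond the spread (two-sided exact permutation test over 3003 splits, p = 0.712). No tumor lay between 5.17 and 8.10: 3 KPY-Ctrl and 4 KPY-Setd2KO tumors were below, and the other 7 tumors above. Summed over the list, the macrophage genes gave 167 to 7249 CPM in KPY-Ctrl and 139 to 12754 CPM in KPY-Setd2KO tumors. The methods describe a sort for YFP, which is meant to leave macrophages out, and describe antibodies against CD45, the product of the score gene Ptprc, for gating in another assay and not for the RNA samples. Ptprc measured 6.76 to 483 CPM (median 117) in KPY-Ctrl and 5.32 to 698 CPM (median 259.5) in KPY-Setd2KO tumors. In bulk samples, fewer cells of a type and less RNA per cell cannot be told apart.

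Other markers moved with the score. All 10 alveolar macrophage markers passed the expression filter, with a mean log2 CPM from 3.34 to 9.66. Of 10 interstitial macrophage and monocyte markers 9 passed, with a mean from 1.11 to 5.10, and Folr2 reached at most 0.516 CPM. Of 12 T, B, NK cell and neutrophil markers 5 passed, and Cd3e, Nkg7 and Ncr1, at 0 in at least 1 tumor each, reached at most 1.12, 0.716 and 0.363 CPM. Cd2 of that list reached 533 CPM with a slope on the score of 1.13. All 14 epithelial markers, Sftpc among them, were present in each tumor, as the label of lung adenocarcinoma requires, and their slopes on the score were negative, from -0.43 to -0.16 log2 units per unit of score. Endothelial, fibroblast and erythroid markers summed to 10.3 to 54.8, 3.01 to 88.0 and 62.5 to 752 CPM. Total counts ranged from 20072236 to 51828846. TMM factors, which scale the libraries, were 0.962 to 1.24 in the 7 tumors below the gap in the score and 0.831 to 0.964 in the 7 above it. Mitochondrial transcripts took 5.97% to 14.9% of counts in the tumors below the gap and 3.50% to 4.90% in those above it, except KPY-Ctrl replicate 6 (9.10%). Both moved with the score, and their part in the slopes was not tested. The targeted gene Setd2 measured 41.9 to 63.6 CPM (median 53.8) in KPY-Ctrl and 17.9 to 47.4 CPM (median 30.4) in KPY-Setd2KO tumors, and the groups overlapped (log2 fold change -0.74, SE 0.224, edgeR adjusted p = 0.175). At equal macrophage score the Setd2 difference was -0.84 (SE 0.188, edgeR adjusted p = 0.025). Small insertions and deletions made by Cas9 need not lower a transcript, so this level is a partial check of the labels.

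Together the 47 genes took 1.34% to 3.74% of all counts in KPY-Ctrl (median 2.36%) and 1.18% to 5.61% in KPY-Setd2KO tumors (median 2.74%). Per kilobase of exon, the highest medians over the 14 tumors were those of Ctss (1594 CPM per kilobase), Psap (1115) and Ctsd (1051), all soluble lysosomal proteins or their precursors. Mitf (1.71), the autophagy scaffold gene Atg16l1 (2.04) and Tfe3 (3.7) were lowest. The order within the upper end changed between tumors, since Ctss alone spanned 49.4 to 10087 CPM per kilobase.

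Most of the lysosomal genes rose with macrophage RNA, in tumors of both genotypes. In a fit with genotype and score, 41 of 47 genes rose with the score and 2 fell at an adjusted p under 0.05, while 28.5% of all tested genes rose and 28.7% fell. The 4 that passed in neither direction were Ctsl, Gaa, Npc2 and Atg16l1. The median slope of the 47 was 0.29 log2 units per log2 unit of score, where 1 means that a gene changes as much as the markers do, and the median of all tested genes was -0.0063. Because no tumor lay in the middle of the score's range, a slope rests largely on the distance between the lower and the upper tumors, and score and gene were read from the same libraries. In the 14 fits that left out 1 tumor, the slopes that lost their call were the shallow ones of Cd63 (in 6 fits), Gabarapl1 (in 9), Glb1 (in 9) and Map1lc3b (in 3), with edgeR adjusted p of at most 0.124. With a score from interstitial macrophage and monocyte markers, no slope of the 47 was called, where 10 of 16836 genes were. The median slope of the 47 was then 0.38, with 44 positive. On a score from the epithelial markers, 40 of the 47 fell and 2 rose, with a median slope of -0.84, where 9577 of 16836 genes were called in either direction. Epithelial markers fell as macrophage markers rose, so the parts of the 2 in these slopes cannot be told apart.

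**Figure D1:**
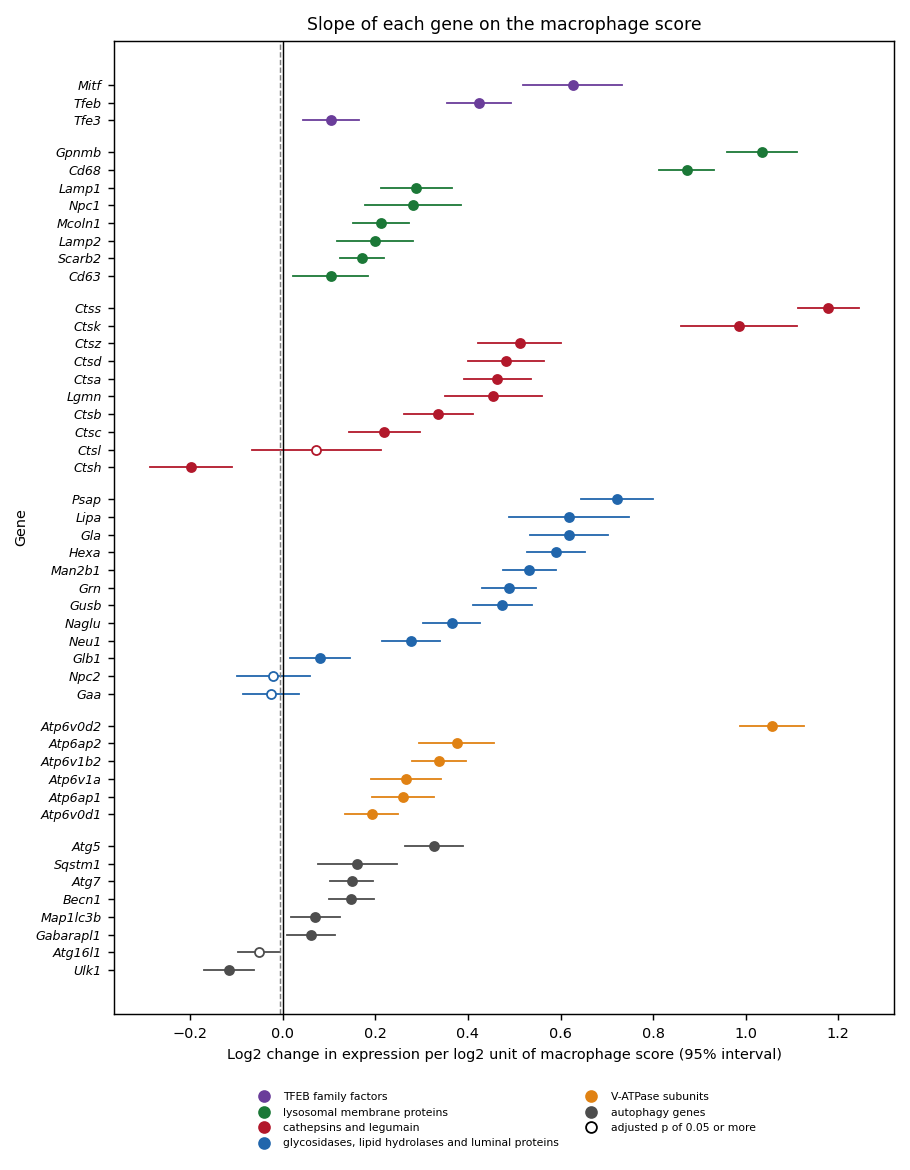
Slope of each of the 47 genes on the macrophage score, as log2 change in expression per log2 unit of score at equal genotype, from edgeR over 14 tumors, with 95% intervals, ordered within each role. Filled points passed an adjusted p of 0.05, and the dashed line marks the median of all tested genes. Ctss, Atp6v0d2 and Gpnmb lie furthest to the right at 1.18, 1.06 and 1.03. Ctsh and Ulk1 are the only filled points below 0, and the open points of Atg16l1, Gaa and Npc2 also lie below 0.

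All 3 TFEB family factors rose with the score, by unequal amounts. Tfeb measured 7.41 to 52.7 CPM (median 20.2) in KPY-Ctrl and 8.19 to 45.5 CPM (median 26.7) in KPY-Setd2KO tumors. The lower tumors of both genotypes had the low values and the upper tumors the high ones, and the genotypes overlapped along the whole range. Its slope was 0.42 (SE 0.0324, adjusted p = 6.97e-08). Mitf, best known as the melanocyte factor and also used by macrophages and osteoclasts, measured 2.09 to 40 CPM (median 9.95) in KPY-Ctrl and 1.57 to 46.1 CPM (median 11) in KPY-Setd2KO tumors, with a slope of 0.63 (SE 0.0497, adjusted p = 1.04e-07). Tfe3, which is expressed in many tissues, measured 28.6 to 59.1 CPM (median 30.7) in KPY-Ctrl and 27.2 to 52.9 CPM (median 38) in KPY-Setd2KO tumors and had a slope of 0.10 (SE 0.0282, adjusted p = 0.00552). The Tfe3 call was lost when counts were scaled by library size alone (slope 0.039, edgeR adjusted p = 0.273). By genotype the 3 factors had log2 fold changes of 0.12, 0.054 and 0.086 for Tfeb, Mitf and Tfe3, none past the threshold.

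All 8 lysosomal membrane genes rose with the score, with a median slope of 0.25. The steepest was Gpnmb, a glycoprotein of phagocytes and melanosomes, at 22.4 to 1049 CPM (median 462) in KPY-Ctrl and 19.7 to 1863 CPM (median 701) in KPY-Setd2KO tumors. Its values spread 94.5-fold from the lowest to the highest tumor and its slope was 1.03 (SE 0.0357). Cd68, the scavenger receptor widely used to stain macrophages, had a slope of 0.87 (SE 0.0278). The general lysosomal coat genes were flatter. Lamp2 measured 277 to 582 CPM (median 332) in KPY-Ctrl and 204 to 700.0 CPM (median 422) in KPY-Setd2KO tumors, with a slope of 0.20 (SE 0.0385, adjusted p = 0.0005), and its spread within each genotype was wider than the distance between the medians. Lamp1 had a slope of 0.29, the cholesterol exporter Npc1 0.28, the calcium channel Mcoln1 0.21, the glucocerebrosidase carrier Scarb2 0.17 and the tetraspanin Cd63 0.10.

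Among the cathepsins, legumain included, 8 of 10 rose, 1 fell and 1 did not pass, with slopes from -0.20 to 1.18. Ctss, the protease that trims the invariant chain of MHC class II in antigen-presenting cells, measured 77.1 to 6076 CPM (median 2015) in KPY-Ctrl and 67.1 to 13698 CPM (median 4953) in KPY-Setd2KO tumors. The 3 lowest KPY-Ctrl tumors and the 4 lowest KPY-Setd2KO tumors by score were the lowest for Ctss, far below the rest. Its slope was 1.18 (SE 0.0309, adjusted p = 1.08e-12), and its highest tumor held 204 times the CPM of the lowest. Ctsk, the collagen-cleaving cathepsin of osteoclasts, followed with 0.99 (SE 0.0587). The broadly expressed aspartic protease gene Ctsd had a slope of 0.48, Ctsz 0.51, Ctsa 0.46, Lgmn 0.45, Ctsb 0.34 and Ctsc 0.22. Ctsl did not pass, at 0.072 (SE 0.065, adjusted p = 0.358). Ctsh, which in the alveolar epithelium takes part in processing surfactant proteins, measured 781 to 2438 CPM (median 1763) in KPY-Ctrl and 466 to 1321 CPM (median 869) in KPY-Setd2KO tumors and fell with the score (-0.20, SE 0.0416, adjusted p = 0.000958), as the epithelial markers did. On a score from the 14 epithelial markers its slope was 0.58 (SE 0.091, adjusted p = 0.000112), and at equal epithelial score its genotype difference was -0.81 (adjusted p = 0.0190).

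Of the 12 glycosidases, lipid hydrolases and luminal proteins, 10 rose and none fell. Psap, the precursor of the saposins that help hydrolases reach sphingolipids, measured 514 to 8367 CPM (median 2993) in KPY-Ctrl and 584 to 14190 CPM (median 4608) in KPY-Setd2KO tumors, and its slope of 0.72 (SE 0.0361, adjusted p = 4.94e-10) was the steepest of these. Lipa, the acid lipase that frees cholesterol from its esters, had a slope of 0.62, the α-galactosidase gene Gla 0.62, the hexosaminidase gene Hexa 0.59, Man2b1 0.53, the progranulin gene Grn 0.49 and Gusb 0.47. Naglu (0.37), Neu1 (0.28) and Glb1 (0.081) were flatter, and Glb1 lost its call when counts were scaled by library size alone or DESeq2 was used. Gaa, the acid α-glucosidase that degrades glycogen, measured 152 to 256 CPM (median 188) in KPY-Ctrl and 113 to 169 CPM (median 140.1) in KPY-Setd2KO tumors, with a slope of -0.025 (SE 0.0284, adjusted p = 0.465). Npc2, the luminal cholesterol carrier, stayed between 1178 and 2352 CPM in all tumors, with a slope of -0.02 (SE 0.0367, adjusted p = 0.661).

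All 6 V-ATPase genes rose, and they included a pair of paralogs with unlike slopes. Atp6v0d1 and Atp6v0d2 encode alternative d subunits of the membrane sector, the first in nearly all tissues and the second in macrophages, osteoclasts and kidney. Per kilobase of exon, Atp6v0d1 spanned 53.5 to 159 CPM over the 14 tumors and Atp6v0d2 9.8 to 1080. Atp6v0d2 was the lower of the pair in the 7 tumors below the gap in the score, at 0.102 to 0.704 of the Atp6v0d1 level, and the higher in the 7 above it, at 2.97 to 6.79 times that level. The slopes were 1.06 (SE 0.0324) for Atp6v0d2 and 0.19 (SE 0.0271) for Atp6v0d1, and both passed the test. The remaining subunit and accessory genes rose by 0.38 (Atp6ap2), 0.34 (Atp6v1b2), 0.27 (Atp6v1a) and 0.26 (Atp6ap1).

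Autophagy genes were the flattest role, with slopes from -0.12 to 0.33 and a median of 0.11. Atg5, part of the conjugation system that lipidates LC3, measured 25 to 78.9 CPM (median 44.1) in KPY-Ctrl and 22.7 to 108 CPM (median 55.4) in KPY-Setd2KO tumors and had a slope of 0.33 (SE 0.0291, adjusted p = 3.60e-07). Sqstm1, the p62 cargo receptor, had a slope of 0.16, Atg7 and Becn1 each 0.15, the LC3 gene Map1lc3b 0.07 and its relative Gabarapl1 0.062. Ulk1, the kinase that starts autophagy and a direct target of mTORC1, measured 20.1 to 44.8 CPM (median 29.4) in KPY-Ctrl and 21.3 to 33.1 CPM (median 22.5) in KPY-Setd2KO tumors and fell with the score (-0.12, SE 0.0254, adjusted p = 0.00131). Atg16l1 missed the threshold at -0.051 (adjusted p = 0.0512). Scaled by library size alone, the Sqstm1 and Map1lc3b calls were lost and the Gabarapl1 slope turned to -0.0065, with all tested genes then at a median slope of -0.080. With DESeq2 the Gabarapl1 slope was not called (DESeq2 adjusted p = 0.067), and Atg16l1 was called as falling (DESeq2 adjusted p = 0.0403).

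Slopes were also set beside the promoter letters. The 14 genes whose window held CACGTG had slopes from -0.025 (Gaa) to 0.62 (Gla). Ctss, Gpnmb, Ctsk and Cd68, among the steepest of the 47, held no match in this window. Atp6v0d2, also among the steepest at 1.06, had no window and was not searched. The steepest gene with the extended form printed above was Gla, and the flattest was Atp6v0d1 (0.19). No test was made of this.

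**Figure D2:**
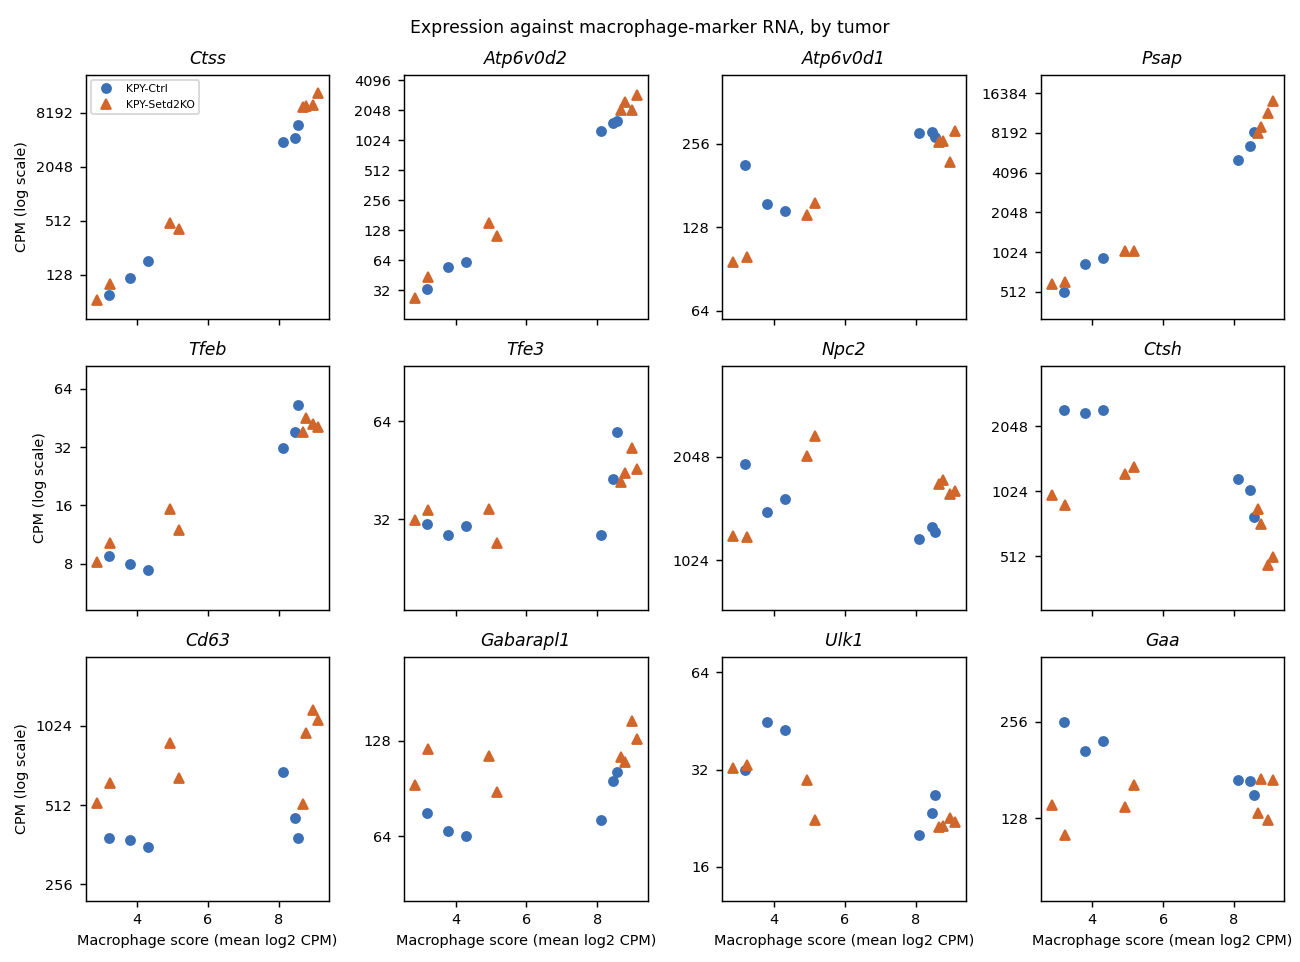
Expression (CPM, log2-scaled axis) of 12 genes against the macrophage score (mean log2 CPM of 12 markers) in each of the 6 KPY-Ctrl (circles) and 8 KPY-Setd2KO tumors (triangles). Ctss and Atp6v0d2 climb along the score in both genotypes, Npc2 and Gaa do not, Ctsh descends, and the KPY-Setd2KO tumors lie mostly above the KPY-Ctrl tumors for Cd63 and Gabarapl1 along the whole score.

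By genotype alone, no lysosomal or autophagy gene passed the threshold, as no gene did among the 16836 tested (0%). The median log2 fold change of the 47 was 0.27 (positive where KPY-Setd2KO tumors were higher), with 40 positive, beside a median of 0.03 over all tested genes. At an unadjusted p under 0.05, 3 were higher and 2 lower, and 13.7% of all tested genes passed that level in either direction. The higher genes were Cd63, Gabarapl1 and Ctsl, and the lower were Ctsh and Gaa. With DESeq2, 2 genes passed an adjusted p of 0.05, Cd63 (adjusted p = 0.0214) and Gabarapl1 (adjusted p = 0.0344), where 3.7% of its tested genes did. None of the 47 had ranges of CPM that did not overlap between genotypes, against 0.57% of all tested genes.

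Cd63, a tetraspanin of late endosomes, lysosomes and exosomes, measured 356 to 682 CPM (median 385) in KPY-Ctrl and 518 to 1173 CPM (median 765) in KPY-Setd2KO tumors. The KPY-Ctrl tumors were low except replicate 6, which lay within the KPY-Setd2KO range. The log2 fold change was 0.86 (SE 0.242, edgeR adjusted p = 0.157). Gabarapl1, which encodes an LC3-like protein that coats autophagosomes, measured 64.4 to 102 CPM (median 74.2) in KPY-Ctrl and 88.6 to 147 CPM (median 115) in KPY-Setd2KO tumors. Its lowest KPY-Setd2KO tumor lay below the 2 highest KPY-Ctrl tumors, and the log2 fold change was 0.53 (SE 0.158, edgeR adjusted p = 0.174). Ctsl, a broadly used cysteine protease, measured 180.2 to 541 CPM (median 337) in KPY-Ctrl and 241 to 991 CPM (median 725) in KPY-Setd2KO tumors, with KPY-Setd2KO replicates 7 and 8 down among the KPY-Ctrl tumors. Its log2 fold change was 0.94 (SE 0.366, edgeR adjusted p = 0.272).

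On the other side, Ctsh had a log2 fold change of -0.96 (SE 0.32, edgeR adjusted p = 0.214). The 3 KPY-Ctrl tumors with little macrophage RNA had the highest values, and the other 3 lay among the KPY-Setd2KO tumors. Gaa had a log2 fold change of -0.44 (SE 0.154, edgeR adjusted p = 0.235), and its groups also overlapped. For genes that follow the score closely, the genotype alone left wide intervals, as for Ctss, where the 95% interval of the log2 fold change ran from -1.57 to 3.91. For Lamp2 it ran from -0.47 to 0.94 around 0.23, and for Tfeb from -1.08 to 1.31 around 0.12.

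**Figure D3:**
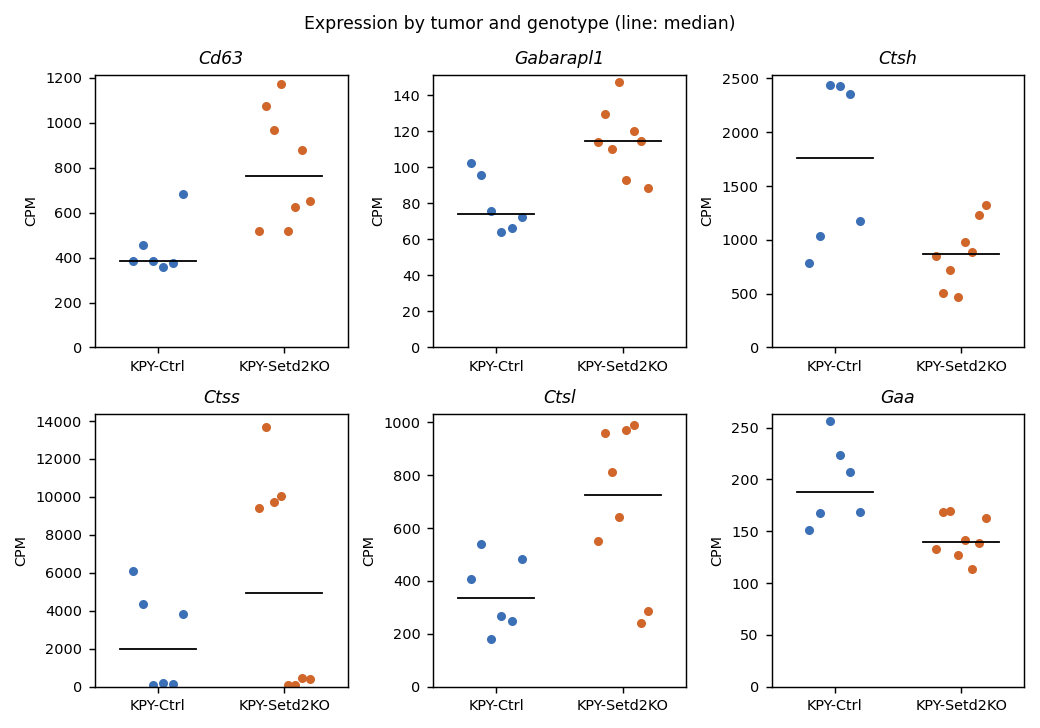
Expression in CPM of 6 genes in each KPY-Ctrl (6 points) and KPY-Setd2KO tumor (8 points), with a line at the median; tumors stand in order of replicate number. The groups overlap in all 6 panels, and Ctss separates tumors within each genotype more than it separates the genotypes.

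At equal macrophage score, the median genotype difference of the 47 was smaller. It moved from 0.27 to 0.06, with 29 positive and 18 negative, and that of all tested genes was -0.01. The log2 fold change of Gpnmb went from 0.75 to 0.10, of Atp6v0d2 from 0.70 to 0.18, of Psap from 0.65 to 0.13 and of Cd68 from 0.34 to -0.052. These 4 carry slopes above 0.7. Other genes that rose with the score ended further from 0, as Mitf did, going from 0.054 to -0.24, Man2b1 from 0.022 to -0.30 and Gusb from 0.14 to -0.20. Lamp2 went from 0.23 to 0.036, with a 95% interval from -0.38 to 0.45.

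Of the 47, 3 were higher and 1 lower in KPY-Setd2KO at an adjusted p under 0.05 in this fit, where 5.52% of all tested genes were called (3.09% higher and 2.43% lower). Cd63 was higher by 0.81 (SE 0.188, edgeR adjusted p = 0.0284), Gabarapl1 by 0.51 (SE 0.122, adjusted p = 0.0302) and Ctss by 0.47 (SE 0.124, adjusted p = 0.0425). Ctsh was lower, at -0.79 (SE 0.198, adjusted p = 0.0337). Ctsl had the largest estimate, 0.98, and did not pass (95% interval 0.24 to 1.72, adjusted p = 0.102). DESeq2 called 5 of the 47, these 4 and Ctsl (adjusted p = 0.0375), where 11.6% of its tested genes were called.

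On GRCm38, Cd63 (ENSMUSG00000025351.14) lies on chromosome 10 from 128900989 to 128912822, Gabarapl1 (ENSMUSG00000030161.8) on chromosome 6 from 129533160 to 129542346, Ctss (ENSMUSG00000038642.10) on chromosome 3 from 95526786 to 95556403 and Ctsh (ENSMUSG00000032359.14) on chromosome 9 from 90054152 to 90076089. All values are summed over the gene.

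The 4 calls were near the threshold. Each log2 fold change kept its sign in the 14 fits that left out 1 tumor, from 0.72 to 0.93 for Cd63 (past the threshold in 10), 0.45 to 0.57 for Gabarapl1 (in 8), 0.41 to 0.50 for Ctss (in 3) and -0.90 to -0.70 for Ctsh (in 8). None of the 47 was called without KPY-Ctrl replicate 2, 4 or 5 or KPY-Setd2KO replicate 6, 1 was without KPY-Setd2KO replicate 4 and 2 were without KPY-Ctrl replicate 6. Over all tested genes, 930 were called with all 14 tumors, against 532 without KPY-Ctrl replicate 2, 191 without 4, 250 without 5 and 918 without 6, and 296 without KPY-Setd2KO replicate 6 and 471 without 4. Gabarapl1 was also lost without KPY-Ctrl replicate 6 or KPY-Setd2KO replicate 4, and Ctsh without KPY-Setd2KO replicate 4 or 5. Ctss was lost without any but KPY-Ctrl replicate 1 and KPY-Setd2KO replicates 5 and 8. The largest edgeR adjusted p in these fits was 0.0757 for Cd63, 0.0899 for Gabarapl1, 0.0906 for Ctss and 0.0796 for Ctsh. The Ctss estimate was -0.82 (edgeR adjusted p = 0.955) when the score came from interstitial macrophage and monocyte markers. With the score on a linear scale, chosen after seeing the data, the Ctss call was lost (adjusted p = 0.946).

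**Figure D4:**
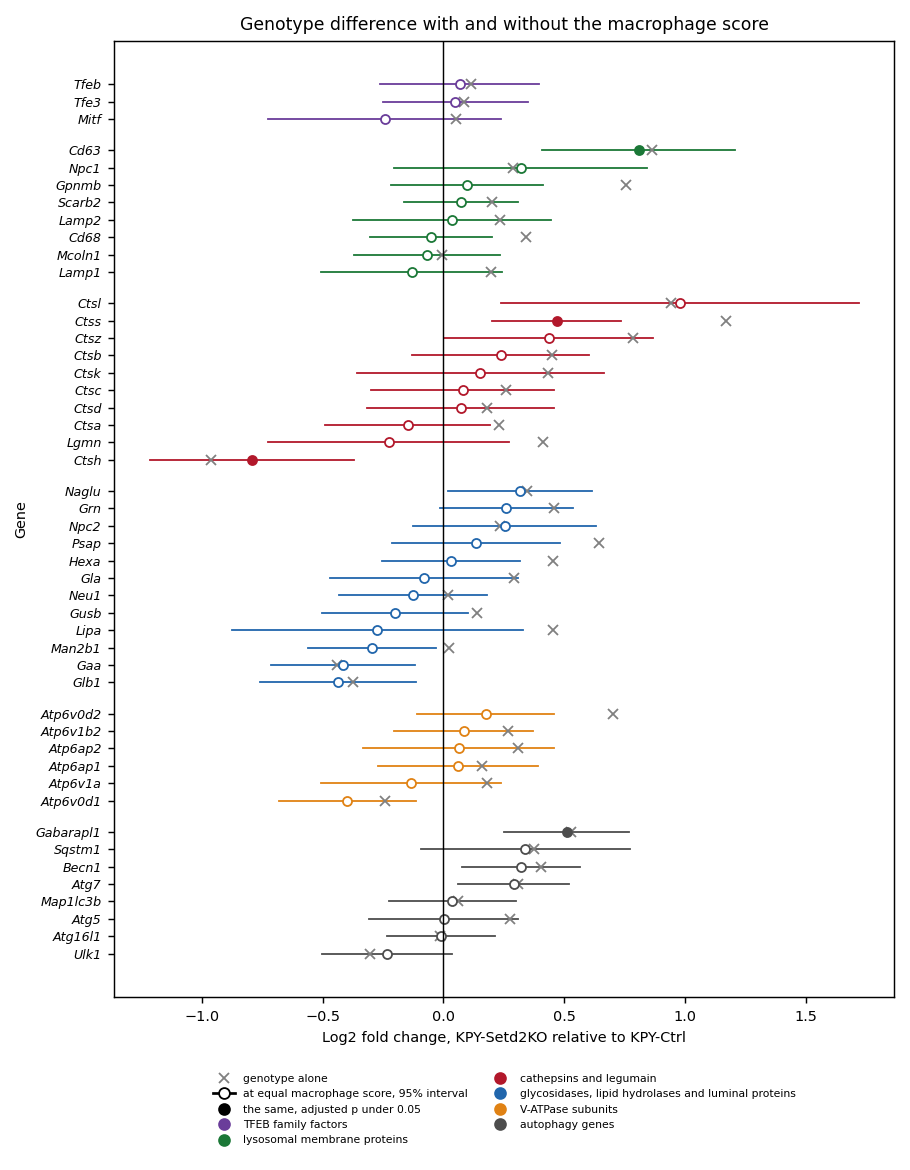
Log2 fold change of each of the 47 genes between KPY-Setd2KO and KPY-Ctrl tumors (positive where KPY-Setd2KO is higher), from genotype alone (crosses) and at equal macrophage score (points with 95% intervals), by role. Crosses of steep genes such as Ctss and Atp6v0d2 lie right of their points, while for Cd63, Gabarapl1, Ctsl and Gaa the pair nearly coincides; filled points passed an adjusted p of 0.05.

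Within the other roles at equal score, the TFEB family lay between -0.24 (Mitf) and 0.067 (Tfeb). Glb1 (-0.44, adjusted p = 0.0959), Gaa (-0.42, adjusted p = 0.0891) and Atp6v0d1 (-0.40, adjusted p = 0.0856) were negative and did not pass. Becn1 (0.32, adjusted p = 0.105) and Atg7 (0.29, adjusted p = 0.118) were positive and did not pass. Atg5 was at 0.0013 (95% interval -0.31 to 0.31) and Ulk1 at -0.23 (95% interval -0.50 to 0.036).

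The slope on macrophage RNA was not found to differ between genotypes for any of the 47 (edgeR, adjusted p of 0.05 or more for all), where 0.374% of all tested genes passed; 5 had an unadjusted p under 0.05, against 11.3% of all. Ctss had slopes of 1.15 (SE 0.0477) in KPY-Ctrl and 1.20 (SE 0.0404) in KPY-Setd2KO tumors, and Atp6v0d2 1.06 and 1.05. Lgmn had the smallest adjusted p, 0.114, with slopes of 0.29 and 0.55.

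The other 84 lysosome and autophagy genes also differed by role. With the score, 54 rose, 18 fell and 12 did not pass, where 28.5% of all tested genes rose and 28.7% fell. Of 24 further hydrolases 22 rose and 2 fell, and of 11 further V-ATPase subunits 10 rose and 1 did not pass. Of 16 membrane and sorting genes 10 rose and 3 fell, and Laptm5, a lysosomal protein of hematopoietic cells, had a slope of 1.08. Of 27 further autophagy genes, 8 rose, 13 fell and 6 did not pass, with a median slope of -0.062. The share that rose was near that of all tested genes. Tfec, the TFEB relative of macrophages counted among 6 regulators of the family, rose by 0.96.

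By genotype alone none of the 84 passed. At equal score, 3 were higher and 1 lower, a share near the 5.52% of all tested genes called in that fit. Optn, an autophagy receptor for mitochondria and bacteria, measured 18.6 to 26.6 CPM (median 21.2) in KPY-Ctrl and 21.1 to 48.5 CPM (median 32.6) in KPY-Setd2KO tumors and was higher by 0.67 (SE 0.13, edgeR adjusted p = 0.0167). The LC3 relative Map1lc3a measured 25.8 to 50.4 CPM (median 35.7) in KPY-Ctrl and 32.6 to 117 CPM (median 54.5) in KPY-Setd2KO tumors, with a difference of 0.74 (SE 0.2, adjusted p = 0.0456). The V-ATPase subunit gene Atp6v1g1 measured 124 to 336 CPM (median 215) in KPY-Ctrl and 177 to 468 CPM (median 400.0) in KPY-Setd2KO tumors, with a difference of 0.64 (SE 0.143, adjusted p = 0.0251). Gnptab, which makes the mannose 6-phosphate tag that sends hydrolases to the lysosome, measured 92.3 to 165 CPM (median 104) in KPY-Ctrl and 48 to 99.8 CPM (median 70.9) in KPY-Setd2KO tumors and was lower by a log2 fold change of -0.77 (SE 0.19, adjusted p = 0.0326). Groups overlapped for all 4. Optn passed in 13 of the 14 fits that left out 1 tumor, failing without KPY-Ctrl replicate 4 (adjusted p = 0.0501), and Atp6v1g1 in 11, failing without KPY-Ctrl replicates 4 and 5 and KPY-Setd2KO replicate 6. Gnptab passed in 7, failing without KPY-Ctrl replicates 2, 4 and 5 and KPY-Setd2KO replicates 5, 6, 7 and 8. Map1lc3a passed in 4, those without KPY-Ctrl replicate 1 or KPY-Setd2KO replicate 1, 2 or 5.

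Other genes with the smallest p of their subgroup did not pass. Flcn, whose product helps mTORC1 hold TFEB in the cytoplasm, measured 21.4 to 40.5 CPM (median 23) in KPY-Ctrl and 10.5 to 25.6 CPM (median 18) in KPY-Setd2KO tumors (difference at equal score -0.59, edgeR adjusted p = 0.0621). The pump subunit gene Atp6v0a1 measured 191 to 343 CPM (median 260.1) in KPY-Ctrl and 160.1 to 244 CPM (median 189.6) in KPY-Setd2KO tumors, with a difference by genotype alone of -0.42 (edgeR adjusted p = 0.258). Ctsf measured 7.84 to 25.9 CPM (median 16.6) in KPY-Ctrl and 3.68 to 24.5 CPM (median 13.5) in KPY-Setd2KO tumors (difference at equal score -0.61, adjusted p = 0.0577), and Ids, an iduronate sulfatase, 25.6 to 69.9 CPM (median 36.7) in KPY-Ctrl and 28.1 to 83.4 CPM (median 66.5) in KPY-Setd2KO tumors (difference by genotype alone 0.46, adjusted p = 0.563).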

How the data were processed

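RNA-seq of 6 KPY-Ctrl and 8 KPY-Setd2KO tumors was used. The deposited values are estimated counts per gene, which the authors made with Salmon 0.8.2 against GRCm38.p5 per the study's methods and the submitters' notes; they are whole, not normalized, and the largest carry 3 digits. Symbols, lengths and coordinates came from GENCODE M21, which matched 52403 of 52550 rows.

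Tests were run in R 4.3.3 with edgeR 4.0.16 (TMM scaling, expression filter by genotype, robust quasi-likelihood test, Benjamini-Hochberg adjustment over 16836 genes, threshold 0.05). The model held genotype alone, genotype and macrophage score, or also their product. Log2 CPM used a prior count of 2. Alternatives used DESeq2 1.42.0, other scaling, filters, scores, a replicate block and leaving out each tumor. The fit was run on simulated counts whose genotype effects were larger than any called here among the genes described. It therefore cannot show how well differences of the size called here are recovered. Total counts, from 20072236 to 51828846, set the counting precision.

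One allele that all groups share and 1 marker gene are not reported here. Members, lists and tests were chosen with earlier results of these data known. Values were named for the TFEB family, Lamp2, every gene called by genotype, the smallest p and extreme slopes in each role, and the smallest p in each wider subgroup; Ctsl, Gaa, Laptm5, Tfec and others given by slope were added after their values were seen.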

Additional observations from a re-analysis of the deposited data

Results flagged for a closer look

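Among the 47 genes no tumor was flagged as apart from its group in any of 94 groups of values. The rule compared the gap at the end of a group with the group's range. Each genotype was split by the gap in the score, which widens that range for genes that follow the score. The rule could therefore hardly flag a tumor in those genes, its usual rate of 1 in 20 does not apply, and no conclusion is drawn. In the wider list, Slc11a1, which encodes a metal ion transporter of phagosomes, differed between genotypes in its slope on the macrophage score, with a slope in KPY-Setd2KO minus that in KPY-Ctrl of 0.702 (SE 0.132, edgeR adjusted p = 0.0424 for the interaction). The slope was -0.39 in KPY-Ctrl and 0.31 in KPY-Setd2KO tumors, and expression measured 7.26 to 48 CPM (median 11.3) in KPY-Ctrl and 0.897 to 13.6 CPM (median 5.36) in KPY-Setd2KO tumors, with overlapping groups. The difference passed in 3 of the 14 fits that left out 1 tumor, and the largest adjusted p was 0.159, without KPY-Ctrl replicate 3.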

How the results depend on the processing

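By genotype alone, none of the 47 genes was called in any alternative run except DESeq2, which called 2. At equal score, where 4 were called, the count was 7 with library size scaling alone (1523 of all 16836 genes), 2 without an expression filter (585 of 35047), and 0 with a replicate block (0 of 16319), with an interstitial macrophage and monocyte score (0 of 16836) or when an absolute log2 fold change over 1 was also required. Leaving out 1 tumor gave 0 to 4. With library size scaling the median of all genes moved from -0.01 to -0.14, and the split of the 47 calls was 3 higher and 4 lower. The median of the 47 at equal score was -0.029 with library size scaling, -0.075 with the interstitial score and -0.18 with the linear score. For the slope, 43 genes were called, and 0 with the interstitial score, where 10 of 16836 genes were called and the median of the 47 was 0.38 (40 to 43 when 1 tumor was left out with the macrophage score). The Gabarapl1 slope was -0.0065 with library size scaling, and the Ctss difference at equal score -0.82 with the interstitial score; the cause was not tested. No interaction of the 47 was called when 1 tumor was left out. Same-numbered tumors' deviations from their group means had correlations from -0.66 to 0.66. These were positive for replicates 1, 2 and 5, whose tumors lay on the same side of the gap in the score. They were negative for replicates 3, 4 and 6, whose tumors lay on opposite sides. The deviations were not adjusted for the score, so they cannot show whether replicate numbers pair the tumors. In the 12 tumors with shared numbers, the block fit called 37 slopes and 0 differences at equal score, against 41 and 5 without the block.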
